A study of Mus musculus with 6 samples.

Results

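The nuclear genes of the mitochondrial respiratory chain and of the ATP synthase were examined in CT26 tumors of mice treated with the kinase inhibitor H89. The genes were chosen by a rule on symbols, with earlier results of these data known. The symbols were those of complex I and its Nduf-named assembly factors (Nduf), complex II (Sdha to Sdhd), complex III (Uqcr), complex IV (Cox4 to Cox8) and ATP synthase (Atp5), without the hypoxia-related forms Cox4i2 and Ndufa4l2. The rule found 94 genes of the 23557 in the table. CT26 is a colon carcinoma cell line of the BALB/c mouse strain, and H89 is a small molecule best known as an inhibitor of protein kinase A that also acts on other kinases. All mice were BALB/c females aged 7 weeks that received 500000 CT26 cells under the skin. From day 6 they were injected into the peritoneum 2 times a week, either with H89 at 10 mg/kg in NaCl (the H89 group) or with NaCl alone (the NaCl group). One tumor from each of 3 mice per group was removed on day 14, and total RNA was sequenced.

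The respiratory chain passes electrons from NADH through complex I, or from succinate through complex II, to complex III and then, by way of cytochrome c, to complex IV, where oxygen is reduced. Complexes I, III and IV pump protons across the inner mitochondrial membrane, and ATP synthase (complex V) uses the returning protons to make ATP. Most subunits are encoded in the nucleus and a small set in mitochondrial DNA. Some complex IV subunits exist as a common form and a tissue form, such as Cox6a2 and Cox7a1, which are typical of heart and skeletal muscle.

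The totals per tumor were 27067349 to 31958793 estimated counts, of which the 94 genes took 0.831% to 0.974%. Levels are given as counts per 1000000 (CPM) after TMM scaling, which corrects for differences in RNA composition between tumors. Genes with a mean of at least 0.5 CPM over the tumors, 13118 in all and 87 of the 94, were tested with edgeR's quasi-likelihood test. A gene was called at a Benjamini-Hochberg adjusted p under 0.05 over all genes tested. Of the 87 genes, 85 had at least 100 counts in every tumor, and Cox6a2 and Cox7a1 had fewer. The labelled tissue was tumor of a colon carcinoma line, and the intestinal keratin Krt20 was at 65.7 to 103.0 CPM, whereas the epithelial genes Epcam, Cdx2 and Vil1 were at most 1.18, 0.304 and 0.187 CPM. H89 tumors 1 and 2 stood apart by their mitochondrially encoded RNA, H89 tumor 1 by muscle RNA as well, and H89 tumor 3 by erythroid RNA; the values stand beside the results they touch. In bulk tumors, fewer cells of one type and less RNA per cell cannot be told apart.

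H89 tumors had lower fitted levels of 78 of the 87 tested genes, with a median log2 fold change of -0.14 against 0.00405 over all genes tested. Scaling by library sizes alone raised the median of all genes to 0.08 and left 61 of the 87 below 0, but 79 below that median. With quantile normalization the median was -0.12 for the 87 genes and -0.02 for all genes, and 67 of the 87 lay below the latter. Only 1 of the 87 genes was called, Cox6a2, which fell. No gene of the 87 was called higher. Among all genes tested, 0.724% were called lower and 0.861% higher. DESeq2, run as an alternative, called 10 of the 87 lower, against 5.34% of all genes tested, and 0 higher. At an unadjusted p under 0.05, 22 of the 87 genes had lower and 1 had higher levels in H89 tumors, where 11.9% of all genes tested had lower and 13.1% had higher levels. In 24 of the 87 genes all 3 H89 tumors lay below all 3 NaCl tumors, and in 1 they all lay above, against 15.5% and 15.2% of all genes tested. The median standard error of a log2 fold change was 0.112 among the 87 genes, close to the size of the median change itself.

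**Figure D1:**
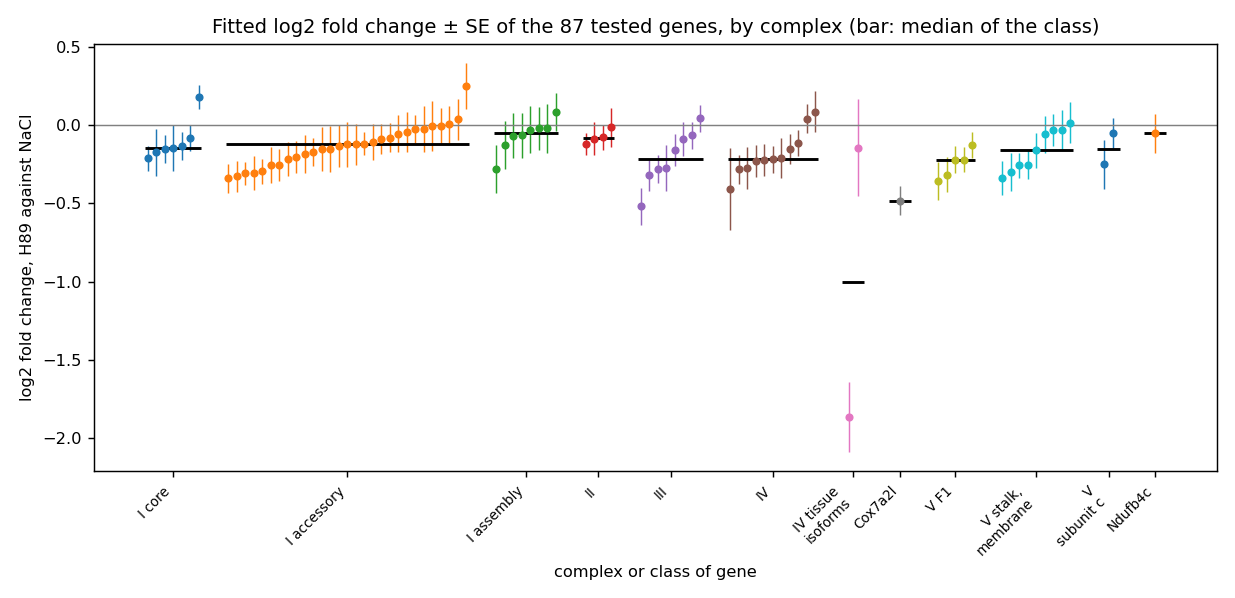
Fitted log2 fold change of H89 against NaCl (vertical axis, points, with bars of ± 1 SE) for the 87 tested genes, in order of size within each complex or class (horizontal axis); black lines are class medians. Cox6a2 stands apart at -1.87, and the other points lie between -0.52 and 0.25, mostly below 0.

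The 3 H89 tumors did not share this difference evenly. Relative to the mean log2 level in NaCl tumors, the median over the 87 genes was 0.000417 in H89 tumor 1, -0.19 in H89 tumor 2 and -0.29 in H89 tumor 3. The 3 NaCl tumors lay at -0.03, 0.02 and 0.03 on the same log2 scale. Thus H89 tumor 1 was level with the NaCl tumors, and H89 tumors 2 and 3 were lower than all of them. H89 tumor 3 held the lowest level of the 6 tumors for 67 of the 87 genes, whereas H89 tumor 1 did so for 2. H89 tumor 3 also had the highest summed level of erythroid markers, at 220.8 CPM, against 29.5 and 21.3 CPM in H89 tumors 1 and 2 and 65.1 to 105.7 CPM in NaCl tumors, and the part of this in the result was not tested. Without H89 tumor 1, the median log2 fold change was -0.24 and 41 genes were lower at an unadjusted p under 0.05. Without H89 tumor 3 these were -0.09 and 11 genes, without H89 tumor 2 they were -0.12 and 9 genes, and without NaCl tumor 2 they were -0.13 and 12 genes. With any 1 of the 6 tumors left out, none of the 87 genes was called.

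**Figure D2:**
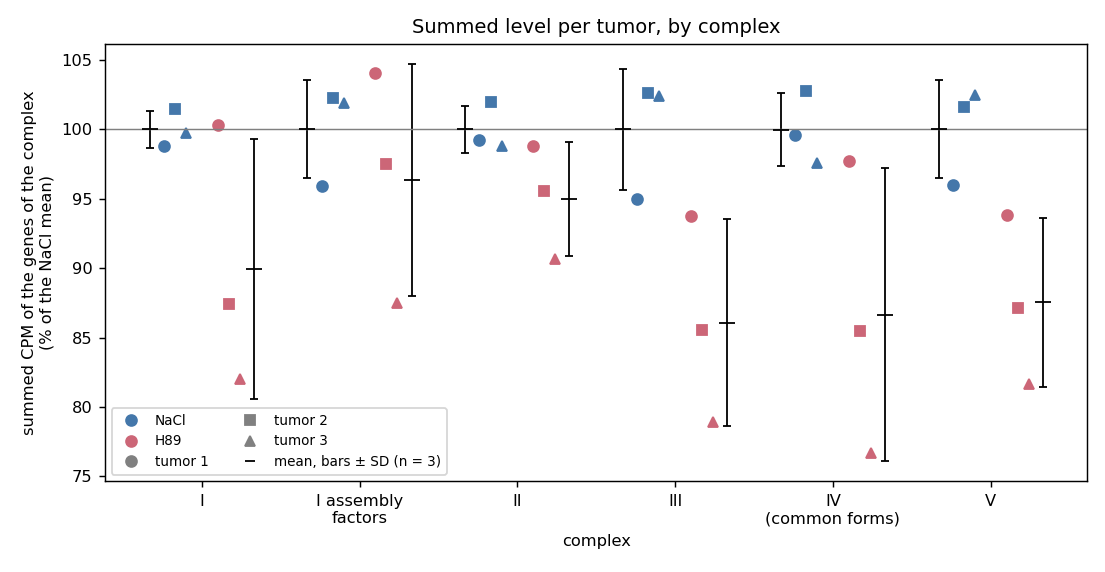
Summed CPM of the genes of each complex in each tumor, as a percentage of the NaCl mean (vertical axis, which starts at 75%), by complex (horizontal axis); symbols mark tumors 1 to 3 of each group and black bars the mean ± SD. H89 tumor 1 lies close to the NaCl tumors and H89 tumor 3 is the lowest for every complex.

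Transcript length moved with these values. The tested genes of the chain are short, with a median transcript length of 745 bases for the 85 genes with an annotated length, against 2674 bases over all genes tested. Over all genes, the median log2 fold change went from -0.10 in the shortest of 5 equal length classes, with transcripts of at most 1508 bases, to 0.08 in the longest. The shortest class held 69 of the 85 genes, with a median of -0.15, and 62 of these 69 had a log2 fold change below 0 against 64.4% of all genes in that class. After a loess correction for transcript length and then GC content, the median log2 fold change of the 85 genes was -0.02, and 47 of them were below 0. By class, the corrected median was -0.00068 for complex I subunits, -0.047 for complex II, -0.05 for complex III, 0.0044 for the common complex IV subunits and -0.08 for ATP synthase. Within ATP synthase it was -0.14 for the 5 F1 genes and -0.00072 for the 7 stalk and membrane genes with an annotated length, of which 4 were below 0. Cox7a2l was then at -0.39 and Cox6a2 at -1.67, so these 2 kept most of their difference. Whether the length trend has its source in the libraries or in the tumors was not tested.

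**Figure D3:**
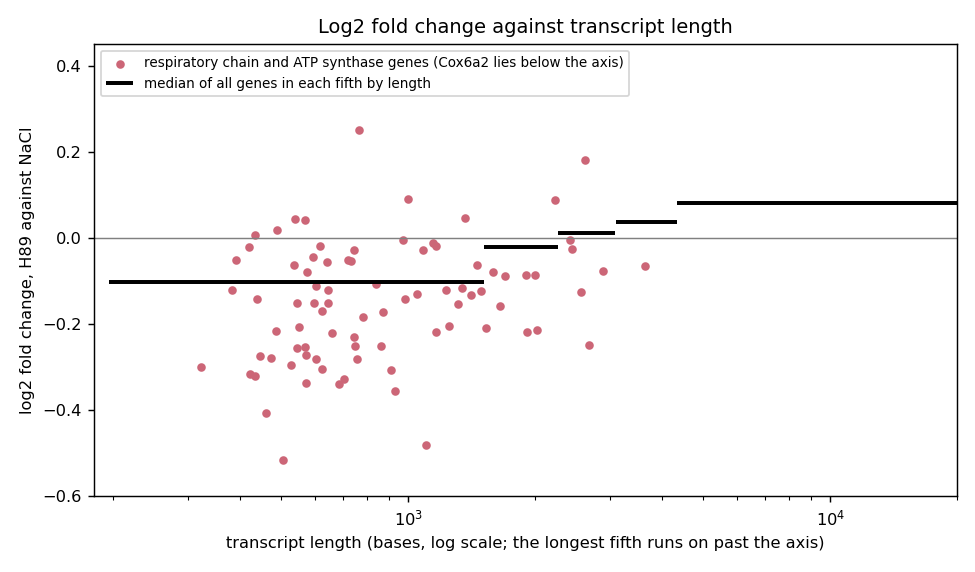
Log2 fold change of H89 against NaCl (vertical axis) by transcript length in bases (horizontal log axis) for the tested genes (points, without Cox6a2 at -1.87), with the median of all genes in each of 5 equal classes by length (black lines). The points crowd into the shortest class, whose median over all genes is -0.10.

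Complex I, the entry point for electrons from NADH, is built from core subunits, which carry the flavin and iron-sulfur centers, and from many accessory subunits. The summed level of its 36 core and accessory genes was 2337, 2400 and 2358 CPM in NaCl tumors and 2372, 2068 and 1940 CPM in H89 tumors. The groups overlapped, through H89 tumor 1. Of these 36 genes, 32 had a log2 fold change below 0, and none was called. At an unadjusted p under 0.05, 7 were lower and 1 was higher, against 11.9% and 13.1% of all genes tested.

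Among the 29 accessory subunits, with a median log2 fold change of -0.12, the smallest p belonged to Ndufb11 and Ndufa7. Ndufb11, a subunit of the membrane arm encoded on the X chromosome (GRCm38, bases 20615326 to 20617619), had 127.5, 125.5 and 130.7 CPM in NaCl tumors and 108.3, 102.2 and 99.7 CPM in H89 tumors. All H89 tumors lay below all NaCl tumors, with a log2 fold change of -0.31 (SE 0.075, edgeR adjusted p = 0.0775). Its exons overlap those of Rbm10 on the opposite strand, and reads of the pair cannot be told apart without strand. Of the 31-base words of its transcripts, 19.1% also occur in other annotated genes, chiefly Gm6444. Ndufa7 gave a log2 fold change of -0.30 (SE 0.081, edgeR adjusted p = 0.0888), from 85.2 ± 2.85 to 69.5 ± 4.55 CPM (SD, n = 3 each), with no overlap. Ndufb11 was also the accessory gene with the highest mean CPM. At the other end stood Ndufb3, with a log2 fold change of 0.25 (SE 0.147, edgeR adjusted p = 0.323). H89 tumor 1 alone reached 39.5 CPM of Ndufb3, while the other two H89 tumors were at 30.3 and 26.5 CPM and the NaCl tumors at 26.2 to 28.3 CPM.

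The 7 core subunits included the gene with the one nominally higher level. Ndufs1, the largest subunit of the electron-input module with several iron-sulfur clusters, had 57.9, 63.6 and 62.8 CPM in NaCl tumors and 70.9, 71.2 and 66.9 CPM in H89 tumors. Every H89 tumor lay above every NaCl tumor, with a log2 fold change of 0.18 (SE 0.078, edgeR adjusted p = 0.196). The exons of Ndufs1 overlap those of Eef1b2 and Ino80dos on the opposite strand, and such reads cannot be told apart without strand. The partner of Ndufs1 in the same module, Ndufv1, which binds the flavin and oxidizes NADH, went the other way. Ndufv1 had 84.9, 92.3 and 88.5 CPM in NaCl tumors against 81.8, 74.2 and 73.7 CPM, again with no overlap (log2 fold change -0.21, SE 0.080, edgeR adjusted p = 0.163). Neither gene was called. The other 5 core genes had log2 fold changes below 0 and overlapped.

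The 8 Nduf-named assembly factors, which help to build complex I and are not part of it, had a median log2 fold change of -0.05. With library sizes alone their median was 0.023 and that of all genes 0.075. The gap to all genes was then -0.0525, against -0.0494 in the main fit. In the main fit none of the 8 was lower or higher at an unadjusted p under 0.05, and in all 8 the groups overlapped. Their log2 fold changes ranged from -0.28 for Ndufaf8, a partner of the assembly factor Ndufaf5, to 0.09 for Ndufaf7, a methyltransferase that modifies a core subunit of complex I. Ndufaf8 was at 12.3, 13.1 and 11.4 CPM in NaCl tumors and at 11.5, 10.5 and 8.30 CPM in H89 tumors. Ndufaf3 had a log2 fold change of -0.12 (SE 0.154), and Ndufaf4, the assembly factor with the highest mean CPM, one of -0.06 (SE 0.143).

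Complex II, succinate dehydrogenase, had the smallest difference in its summed level among the complexes, at -4.99% from the NaCl to the H89 mean. The sums of Sdha, Sdhb, Sdhc and Sdhd were 449.2, 461.3 and 447.1 CPM in NaCl tumors and 447.0, 432.5 and 410.2 CPM in H89 tumors. The highest H89 tumor and the lowest NaCl tumor differed by less than 1 CPM. All 4 log2 fold changes were below 0, from -0.12 to -0.01, except that Sdhb was above 0 under library sizes alone and under quantile normalization, and none had an unadjusted p under 0.05. Sdha, the flavoprotein that oxidizes succinate, was at 170.5, 170.5 and 161.7 CPM in NaCl tumors and at 152.6, 155.3 and 168.7 CPM in H89 tumors. Here, unlike most genes of the chain, H89 tumor 3 was the highest of its group. Sdhb, the iron-sulfur subunit, was at 88.6 ± 8.74 and 87.9 ± 12.7 CPM, and Sdhc, a membrane anchor, at 121.2 ± 4.93 and 114.2 ± 14.3 CPM in NaCl and H89 tumors (SD, n = 3 each). Sdhd, the other membrane anchor, was at 75.1 ± 1.31 and 69.0 ± 1.83 CPM without overlap (SD, n = 3 each, log2 fold change -0.12, SE 0.070, edgeR adjusted p = 0.317).

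Complex III, which passes electrons from ubiquinol to cytochrome c, had summed levels of 753.4, 814.3 and 812.3 CPM in NaCl tumors and 743.7, 678.9 and 625.9 CPM in H89 tumors. Its 8 genes had a median log2 fold change of -0.22, and 3 of them, Uqcrq, Uqcrh and Uqcr10, were lower at an unadjusted p under 0.05 and did not overlap. All 3 encode small subunits without an electron-carrying group. Among all genes tested, 11.9% were lower at that p, and in 15.5% all H89 tumors lay below all NaCl tumors. Uqcrq (chromosome 11, bases 53427922 to 53430831, GRCm38) was at 138.3, 153.6 and 162.5 CPM in NaCl tumors and at 122.6, 100.8 and 94.3 CPM in H89 tumors. Its log2 fold change of -0.52 (SE 0.118) gave an edgeR adjusted p of 0.0689. Uqcrh, the hinge protein, had a log2 fold change of -0.28 (SE 0.088, edgeR adjusted p = 0.114), with 85.8, 83.2 and 93.0 CPM against 78.3, 68.0 and 69.7 CPM. Uqcrc1, a core protein of the complex and its gene with the highest mean CPM, overlapped between groups at 160.9 ± 7.91 CPM in NaCl tumors and a log2 fold change of -0.16 (SE 0.102). Uqcrfs1, the Rieske iron-sulfur protein, had a log2 fold change of 0.05 (SE 0.086). Thus the log2 fold changes of subunits of one complex differed by more than their standard errors, although the difference between genes was not itself tested.

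**Figure D4:**
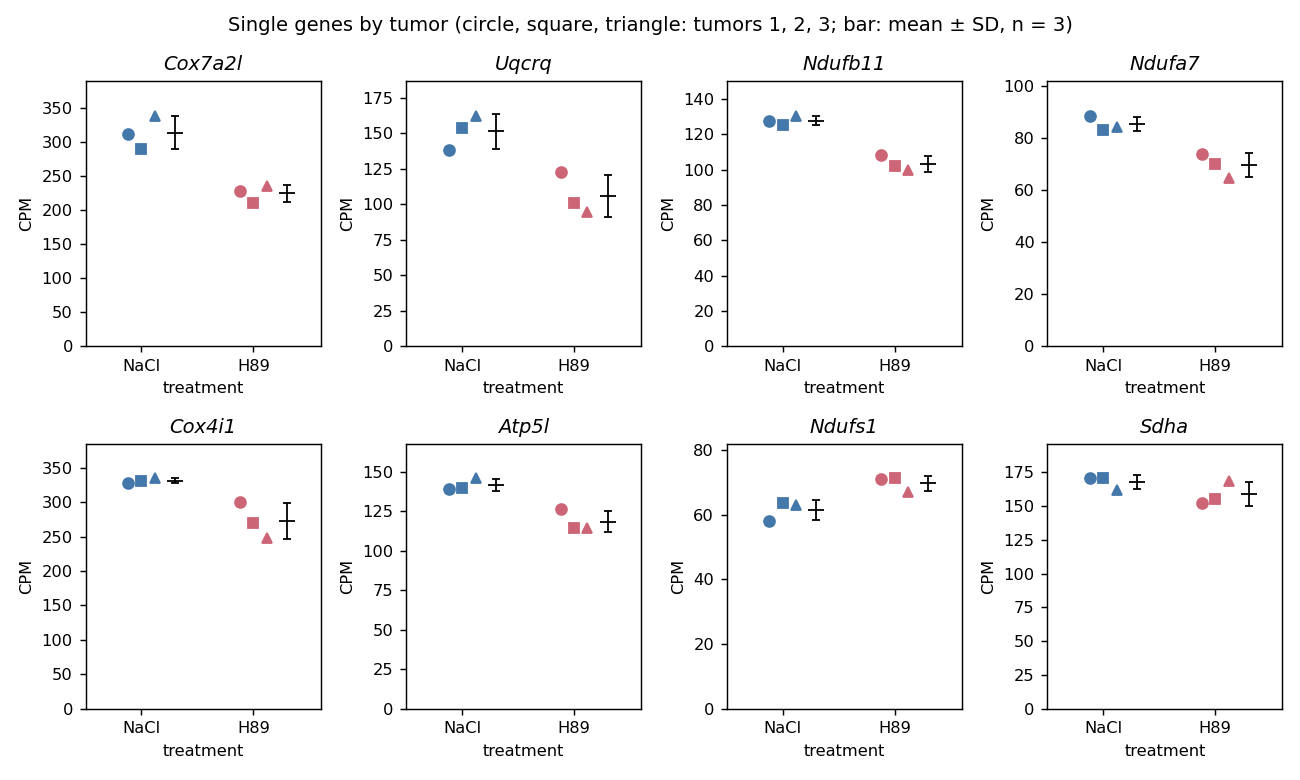
CPM of 8 genes in each tumor (vertical axes start at 0), in NaCl and H89 groups (horizontal axis), with the mean ± SD (n = 3). The H89 tumors lie below the NaCl tumors for the first 6 genes and above them for Ndufs1, and the groups overlap for Sdha.

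Complex IV, cytochrome c oxidase, had summed levels of its 11 common nuclear subunits of 1842, 1900 and 1804 CPM in NaCl tumors and 1807, 1581 and 1418 CPM in H89 tumors, with H89 tumor 1 just above the lowest NaCl tumor. The median log2 fold change was -0.22 and 9 of 11 genes were below 0. Cox4i1, the common form of subunit 4, was at 328.1, 331.2 and 334.5 CPM in NaCl tumors and at 300.5, 269.1 and 248.4 CPM in H89 tumors. These groups were well apart (log2 fold change -0.28, SE 0.093, edgeR adjusted p = 0.123). Cox6b1, a subunit on the cytochrome c side, was at 216.1 ± 5.86 and 185.9 ± 14.2 CPM without overlap (SD, n = 3 each, log2 fold change -0.22, SE 0.086, edgeR adjusted p = 0.175). Cox7b stood at the opposite end with a log2 fold change of 0.09 (SE 0.132). Ndufa4, named for complex I but since recognized as a subunit of complex IV, varied most within groups, at 49.5, 75.2 and 93.0 CPM in NaCl and 68.4, 57.7 and 38.1 CPM in H89 tumors, and no difference could be told from that spread.

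The tissue isoforms of complex IV were examined apart, and Cox6a2 was known from earlier results of these data. Cox6a2 (chromosome 7, bases 128205435 to 128206387, minus strand, GRCm38) was at 6.62, 7.01 and 9.14 CPM in NaCl tumors and at 2.60, 1.76 and 1.89 CPM in H89 tumors, that is 184, 188 and 250 counts against 73, 58 and 62. The highest H89 tumor was far below the lowest NaCl tumor. Cox6a2 fell by 1.87 on the log2 scale (SE 0.225, edgeR adjusted p = 0.0407; exact two-sided permutation test of log2 levels, p = 0.1, the smallest p that 3 against 3 tumors allow). The adjusted p was 0.0663 to 0.137 when any 1 tumor was left out, with log2 fold changes of -2.05 to -1.71. After the correction for length and GC content the log2 fold change was -1.67. An antisense gene, Itgad, overlaps its exons and had at most 0.182 CPM in any tumor. No 31-base word of its transcripts occurred, on the same strand, in another annotated gene.

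Cox6a1, the common form that takes the same place in the enzyme, was far more abundant. It had 295.9, 295.4 and 250.9 CPM in NaCl tumors and 274.7, 227.6 and 194.6 CPM in H89 tumors, and the groups overlapped (log2 fold change -0.27, SE 0.137, edgeR adjusted p = 0.258). Per kilobase of transcript, Cox6a2 reached 1.88%, 1.99% and 3.06% of the level of Cox6a1 in NaCl tumors and 0.796%, 0.650% and 0.813% in H89 tumors. The ratio was 2.31% ± 0.650 against 0.753% ± 0.0893 (SD, n = 3 each, exact two-sided permutation test of the log2 ratio, p = 0.1, the smallest possible). The sum of both genes was therefore set by Cox6a1, at 288.3 ± 24.5 and 234.4 ± 40.6 CPM (SD, n = 3 each).

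The other muscle-type isoform, Cox7a1, had a lower mean CPM than Cox6a2 in both groups and showed no difference beyond its spread. Per kilobase of transcript, its mean in H89 tumors was the higher, at 4.06 CPM against 3.06 CPM for Cox6a2. Cox7a1 was at 2.55, 1.72 and 1.61 CPM in NaCl tumors and at 2.46, 1.43 and 1.46 CPM in H89 tumors. Its log2 fold change was -0.14 (SE 0.312, edgeR adjusted p = 0.806), and tumor 1 was the highest of both groups. Its common form, Cox7a2, had a log2 fold change of -0.22 (SE 0.103, edgeR adjusted p = 0.227), at 105.8 ± 2.88 and 90.7 ± 11.7 CPM (SD, n = 3 each). Cox6b2, known from testis, lay under the filter at 0.360 to 0.608 CPM, or 10 to 20 counts. Cox7b2 had at most 2 counts and Cox8b at most 1 count in any tumor, and Cox8c was at 0 in all 6. No fold change is given for these, and Cox8a, the common form of the latter pair, was at 279.9 ± 29.7 and 242.4 ± 34.8 CPM (SD, n = 3 each, log2 fold change -0.21, SE 0.128).

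**Figure D5:**
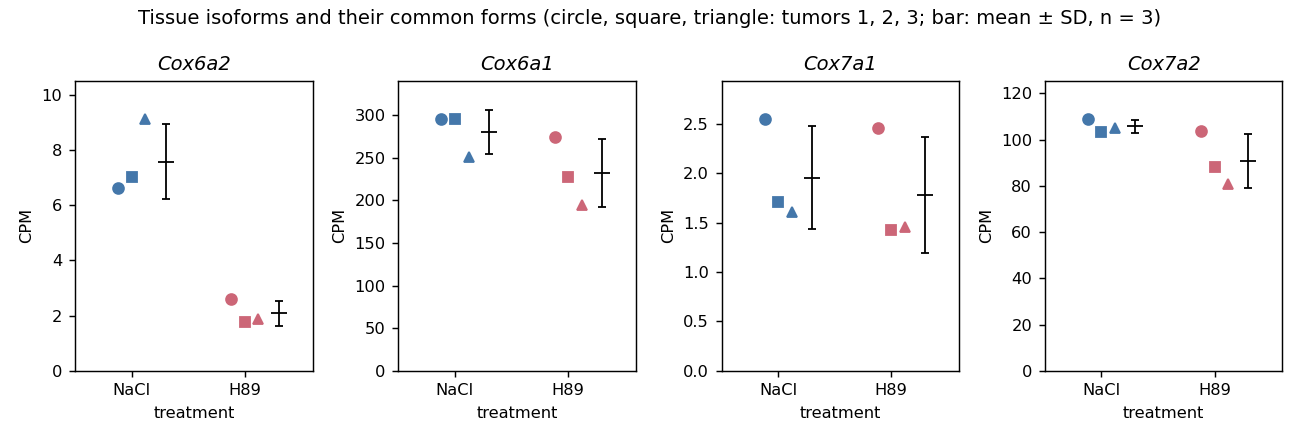
CPM of Cox6a2, Cox6a1, Cox7a1 and Cox7a2 in each tumor (vertical axes start at 0), in NaCl and H89 groups (horizontal axis), with the mean ± SD (n = 3). Cox6a2 is at 6.62 to 9.14 CPM in NaCl and 1.76 to 2.60 CPM in H89 tumors, and the other panels overlap.

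Cells known to express Cox6a2 were looked at through marker genes. Of 14 skeletal muscle markers 6 passed the filter, none was called, 0 were lower and 2 (Acta1 and Ttn) were higher at an unadjusted p under 0.05. The summed level of the 14 was 3.87 to 5.76 CPM in NaCl tumors and 29.4, 6.32 and 3.95 CPM in H89 tumors 1, 2 and 3, the first with Acta1 alone at 12.3 CPM. H89 tumor 1 was also the H89 tumor with the highest Cox6a2. Of 10 markers of plasmacytoid dendritic cells, which are also known to carry Cox6a2 in the mouse, 9 were tested and none was called. At an unadjusted p under 0.05, 4 (Siglech, Klk1, Ccr9 and Pacsin1) were higher and 0 lower, where 13.1% of all genes tested were higher and 11.9% lower. Of the 9, 1 had a log2 fold change below 0. The summed level of all 10 markers listed for these cells was 523.3, 448.7 and 410.3 CPM in NaCl and 652.4, 441.9 and 603.4 CPM in H89 tumors, with overlap. Siglech, Klk1, Ccr9, Pacsin1 and Ly6d were each at most 4.14 CPM in any tumor. Other genes of the list thus made up most of this sum. Siglech, a receptor that defines these cells, was at 1.24 to 2.09 CPM in NaCl and 2.83 to 4.14 CPM in H89 tumors. Neither list thus held a gene with a lower level at that p, and no marker of either list was at 0 in all tumors. The part of any cell type in the level of Cox6a2 was not tested.

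Cox7a2l, which encodes a relative of Cox7a2 that joins complexes III and IV into supercomplexes, came next by p. It was at 312.1, 289.5 and 338.4 CPM in NaCl tumors and at 227.0, 210.3 and 235.5 CPM in H89 tumors. The groups were clearly apart and, unlike most genes of the chain, H89 tumor 1 lay as low as the other two. Its log2 fold change of -0.48 (SE 0.093) gave an edgeR adjusted p of 0.0504, just past the threshold. The adjusted p was 0.0484 with median ratio scaling and 0.0422 without a filter on low counts, so this gene was called or not by small changes of setting. Of the 31-base words of its transcripts, 16.6% also occur in other annotated genes, chiefly the gene model Gm6969, which has no column in the table.

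Of the 5 complexes, ATP synthase had the largest share of genes with a lower level at an unadjusted p under 0.05. The summed level of its 17 genes was 3608, 3820 and 3852 CPM in NaCl tumors and 3527, 3277 and 3069 CPM in H89 tumors, without overlap. Of 16 tested, 15 had a log2 fold change below 0 and 8 were lower at that p, while none was called. Among all genes tested, 11.9% were lower at that p. With quantile normalization 10 of the 16 were below 0, and 3 of the 5 F1 genes, since Atp5b and Atp5a1 were then at 0.0527 and 0.0760. In the catalytic F1 part, 4 of 5 genes were lower at that p, with a median log2 fold change of -0.22. Atp5b, the catalytic beta subunit, was the most abundant gene of all, also per kilobase of transcript among those with an annotated length. It was at 1276, 1371 and 1403 CPM in NaCl tumors and 1208, 1167 and 1103 CPM in H89 tumors without overlap (log2 fold change -0.22, SE 0.086, edgeR adjusted p = 0.171). Atp5d and Atp5e, of the central stalk that turns within F1, had log2 fold changes of -0.36 (SE 0.124) and -0.32 (SE 0.112), with edgeR adjusted p of 0.137 and 0.140. Atp5a1, the alpha subunit that alternates with beta, had the smallest difference of the 5, at 575.5 ± 25.3 and 526.9 ± 20.2 CPM (SD, n = 3 each, log2 fold change -0.13, SE 0.082), and overlapped.

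The 9 genes of the peripheral stalk and the membrane part had a median log2 fold change of -0.16. Atp5l, a membrane subunit where synthase dimers meet, was at 139.2, 139.7 and 146.0 CPM in NaCl tumors and at 126.3, 114.6 and 114.8 CPM in H89 tumors. All H89 tumors were lower (log2 fold change -0.26, SE 0.079, edgeR adjusted p = 0.110). Atp5o, which ties the stalk to F1, was at 154.6 ± 5.30 and 122.3 ± 15.8 CPM without overlap (SD, n = 3 each, log2 fold change -0.34, SE 0.108, edgeR adjusted p = 0.115). Its annotation overlaps that of Donson, and reads of the pair could have been split. Atp5pb, the stalk gene with the highest mean CPM, and Atp5mpl, a small membrane subunit, were at -0.03 (SE 0.103) and 0.02 (SE 0.131) on the log2 fold change scale and overlapped.

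Subunit c, the ring that turns with the proton flow, is made from 3 genes that encode the same mature protein. Atp5g3 was at 219.0, 220.5 and 205.1 CPM in NaCl tumors and at 207.3 ± 21.6 CPM in H89 tumors (SD, n = 3, log2 fold change -0.05, SE 0.097). Atp5g1 was at 17.7, 21.9 and 19.3 CPM and at 19.9, 15.5 and 14.1 CPM (log2 fold change -0.25, SE 0.156). Both overlapped between groups, and per kilobase Atp5g1 was at 2.45% ± 0.256 of Atp5g3 in NaCl and 2.13% ± 0.162 in H89 tumors (SD, n = 3 each, exact two-sided permutation test of the log2 ratio, p = 0.2). Atp5g2 was listed at 0 in all 6 tumors. Of the 31-base words of its transcripts, 40.2% occur in other annotated genes, of which Gm10175 was listed at 0 as well. Why Atp5g2 was at 0 was not tested, and its level is uncertain.

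Pseudogenes that match the symbols were counted with the rest. Ndufb4c, a processed pseudogene all of whose 31-base words occur in the complex I gene Ndufb4, averaged 30.3 ± 0.624 CPM over the NaCl tumors and 29.3 ± 4.75 CPM over the H89 tumors (SD, n = 3 each), above Ndufb4 at 14.2 to 20.0 CPM. The counts of the pair cannot be told apart, and their sum was 47.1 ± 2.43 CPM in NaCl and 46.0 ± 7.27 CPM in H89 tumors (SD, n = 3 each). Ndufab1-ps had at most 0.108 CPM, and Atp5k-ps4 was at 0 in every tumor.

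Other genes of the pathway, from lists written beside the rule, were given the same test, and none was called. Over 71 tested nuclear genes for assembly, cytochrome c, the tricarboxylic acid cycle and control of mitochondrial biogenesis, the median log2 fold change was -0.04, with 44 below 0, 8 lower and 3 higher at an unadjusted p under 0.05. With 11.9% of all genes tested lower and 13.1% higher at that p, the number lower was close to the background and the number higher was under it. Of 6 complex III assembly genes, Bcs1l and Uqcc2 were lower at that p, and of 22 complex IV assembly genes 2 (Cox19 and Coa3) were lower and 2 (Cox20 and Lrpprc) higher. Of 9 complex I assembly genes outside the Nduf family 1, Tmem126a, was lower, and of 4 complex II and 3 ATP synthase assembly genes none was lower or higher. Cyc1, the cytochrome c1 of complex III, had a log2 fold change of -0.24 (SE 0.1203), and Cycs, the cytochrome c that links complexes III and IV, one of -0.03 (SE 0.118). In the tricarboxylic acid cycle, which makes the NADH, 11 of 13 genes were below 0, those lower at an unadjusted p under 0.05 included Mdh2, and Sucla2 was higher at that p. Mdh2, the malate dehydrogenase of the cycle, was at 490.9, 498.9 and 512.2 CPM in NaCl tumors and 390.7, 384.3 and 344.1 CPM in H89 tumors (log2 fold change -0.42, SE 0.085, edgeR adjusted p = 0.0528).

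The subunits encoded in mitochondrial DNA differed in the other direction from most nuclear ones. All 13 had a log2 fold change above 0 under every scaling tried, with a median of 0.71. At an unadjusted p under 0.05, 6 were higher, against 13.1% of all genes tested, although none was called. The median rested on single tumors: without H89 tumor 1 it was 0.43, with 1 gene below 0, and without H89 tumor 3 it was 1.05. Their summed level was 51162, 62198 and 51538 CPM in NaCl tumors and 112782, 97241 and 46466 CPM in H89 tumors 1, 2 and 3. H89 tumors 1 and 2 were thus above the NaCl tumors and H89 tumor 3, which had the lowest nuclear levels, was below them. Because these few genes take a large and uneven share of the counts, other scalings were tried. With library sizes alone the median log2 fold change was -0.08 for the 87 nuclear genes and 0.08 for all genes tested. Such a scaling moves all genes of a tumor alike, so the gap between these medians, -0.15 as in the main fit, could hardly change. With quantile normalization, which does not move all genes alike, the gap was -0.099.

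Markers of other cells also differed between groups. At an unadjusted p under 0.05, 5 of 7 T cell markers and 3 of 6 fibroblast markers were higher, 2 of 5 tested colon epithelial markers were lower, and 0 of 8 macrophage and 0 of 8 proliferation markers were lower or higher, with none called, where 11.9% of all genes tested were lower and 13.1% higher. At the same p, Cfd of 3 tested adipocyte markers and Csf3r of 4 tested neutrophil markers were higher, and no keratinocyte, endothelial or erythroid marker was lower or higher. The summed level of the T cell markers was 11.6 to 24.3 CPM in NaCl and 22.7 to 58.6 CPM in H89 tumors. That of the fibroblast markers was 2177 to 2442 CPM and 2455 to 3146 CPM, and that of the colon epithelial markers 109.9 to 124.3 CPM and 77.1 to 92.9 CPM. The 2 lower colon epithelial markers were the keratins Krt18 and Krt20, and the other tested markers of that list were above 0, with a median log2 fold change of 0.05 over the 5. Krt20, at a mean of 98.6 CPM in NaCl and 71.1 CPM in H89 tumors, made up most of the sum. The part of any of these cell types in the levels of the respiratory chain genes was not tested.

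The promoters of these genes are known to hold sites for a few factors that keep nuclear respiratory genes in step, among them nuclear respiratory factor 1 (NRF1), ETS proteins such as GABP, and YY1. RefSeq promoters (GRCm38.p6, 250 bases before to 50 after the start) matched 76 of the 94 genes, with 81 promoters in all. Those of 3 genes are printed, Cox6a1 and Atp5l to show promoters with both the NRF1 and the ETS letters and Cox7a2l to show one with neither. That of Cox6a2 was not used here. The capitals mark the NRF1 letters GCGCATGCG and the ETS letters CCGGAAG on either strand (CGCATGCGC and CTTCCGG on the other), and in Cox6a1 2 NRF1 matches overlap by all but one base. The Cox6a1 promoter is chr5:115348909-115349208, that of Atp5l chr9:44920693-44920992 and that of Cox7a2l chr17:83514284-83514583, all on the minus strand and written 5′ to 3′.
Cox6a1: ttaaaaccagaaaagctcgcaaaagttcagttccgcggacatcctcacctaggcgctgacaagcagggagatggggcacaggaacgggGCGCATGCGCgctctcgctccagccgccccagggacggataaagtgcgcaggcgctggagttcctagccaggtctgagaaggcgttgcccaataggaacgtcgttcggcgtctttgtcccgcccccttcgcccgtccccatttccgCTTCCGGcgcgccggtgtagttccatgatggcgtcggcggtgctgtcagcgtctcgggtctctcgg
Atp5l: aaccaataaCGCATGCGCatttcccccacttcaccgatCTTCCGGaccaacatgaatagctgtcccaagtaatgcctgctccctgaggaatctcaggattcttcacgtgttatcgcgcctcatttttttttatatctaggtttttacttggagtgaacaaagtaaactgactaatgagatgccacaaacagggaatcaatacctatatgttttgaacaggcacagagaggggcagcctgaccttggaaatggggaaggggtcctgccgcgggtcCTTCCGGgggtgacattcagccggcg
Cox7a2l: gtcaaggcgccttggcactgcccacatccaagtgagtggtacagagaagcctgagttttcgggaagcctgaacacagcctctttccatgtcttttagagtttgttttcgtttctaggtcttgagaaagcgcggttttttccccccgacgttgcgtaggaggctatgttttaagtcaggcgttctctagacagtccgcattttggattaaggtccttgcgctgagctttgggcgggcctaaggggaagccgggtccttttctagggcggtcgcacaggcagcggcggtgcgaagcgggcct

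The NRF1 letters occurred in 12.3% of the promoters of the respiratory chain and ATP synthase genes and in 1.75% of all 32851 promoters. For the ETS letters the shares were 23.5% and 8.86%, and for the YY1 letters AAGATGGC (GCCATCTT on the other strand) 13.6% and 2.75%. The cyclic AMP response element TGACGTCA, the same on both strands and the site of CREB, a target of protein kinase A, was in 4.94% and 1.79%. A match of letters is a description and not a bound site. The 9 tested genes with the NRF1 letters, among them Uqcr11 and Uqcrc1 of complex III, had a median log2 fold change of -0.25, against -0.14 in the 63 matched genes without them. Over all genes tested these medians were -0.00193 with the letters and 0.00174 without. For ETS they were -0.21 in 19 and -0.14 in 53 genes of the chain, a gap close to that over all genes, at -0.04 and 0.014. For YY1 they were -0.13 and -0.15 in the chain and -0.03 and 0.0038 over all genes. For the 4 genes of the chain with the cyclic AMP element the median was -0.08 against -0.15 without it, and over all genes these were -0.04 and 0.0031. Nrf1, the gene of the factor, was at 45.7, 46.7 and 46.8 CPM in NaCl tumors and at 40.6, 40.6 and 41.0 CPM in H89 tumors. These did not overlap, with a log2 fold change of -0.19 (SE 0.073, edgeR adjusted p = 0.168), and Gabpa, which encodes a subunit of GABP, had one of -0.00189 (SE 0.155). Among the 12 listed regulators of mitochondrial biogenesis, Nrf1 was the 1 gene lower at an unadjusted p under 0.05, against 11.9% of all genes tested, and 0 were higher. Their median log2 fold change was -0.0092, with 7 below 0. A part of Nrf1 in the levels of genes with the NRF1 letters was not tested.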

How the data were processed

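Total RNA of 6 CT26 tumors, 3 per group, was sequenced on the BGISEQ-500 platform. The authors deposited 1 table of 23557 genes, named TPM, whose values are estimated counts per gene: each tumor summed to 27067349 to 31958793, not to 1000000. The submitters' processing notes name kallisto, DESeq2 and the GRCm38 build, and versions are not given in the sources used here. Groups and replicate numbers came from the sample titles. The p-values measure the spread between these tumors, 1 per mouse.

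Counts were rounded and fitted with edgeR 4.0.16 in R 4.3.3 (quasi-likelihood test, TMM scaling, a single term for treatment, minimum mean of 0.5 CPM, Benjamini-Hochberg adjustment over 13118 genes). Standard errors were taken from the fold change and the F statistic, as |log2 fold change| over the root of F. The fit was also run on counts simulated from the means and dispersions of these data. Printed CPM are TMM scaled. Permutation tests of single genes used log2(CPM + 0.5), and those of isoform ratios used the log2 ratio per kilobase without a pseudocount. Transcript lengths are medians of basic coding transcripts in GENCODE M21 on GRCm38, which matched 91 of the 94 symbols. Alternatives were library sizes only, median ratio scaling, quantile normalization with limma 3.58.1, DESeq2 1.42.0, no filter, at least 5 CPM, limma on log2(CPM + pseudocount) with 0.5 or 2, the replicate number as a block, each tumor left out, and a loess correction (span 0.3) for length and GC content. The genes, their classes and the lists were chosen with earlier results of these data known. Named were every gene called, the tissue isoforms above 0 and their common forms, the subunit c genes, complex II, and in each other class the gene with the highest mean CPM, the 2 with the smallest p and the one with the most positive log2 fold change, and 1 gene so chosen is not reported here. Genes and values outside that rule, such as Ndufa4, Uqcr10 and those of the pathway and marker lists, were chosen after their values were seen. Keratinocyte, adipocyte, neutrophil, endothelial and erythroid markers held no called gene.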

Additional observations from a re-analysis of the deposited data

How the results depend on the processing

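With the main settings 208 of 13118 genes were called, 1 of the respiratory chain and ATP synthase genes lower and 0 higher (1 at an unadjusted p under 0.05), and the median log2 fold change was -0.14. All genes called numbered 80 with quantile normalization and limma, 1396 with DESeq2 and 0 with the replicate number as a block. DESeq2 called 10 genes of the chain lower, namely Atp5l, Atp5o, Cox4i1, Cox6a2, Cox7a2l, Ndufa2, Ndufa7, Ndufb11, Ndufb9 and Uqcrq, and 0 were higher even at an unadjusted p under 0.05. Median ratio scaling and the fit with no filter called 2 lower (Cox6a2 and Cox7a2l), and the filter at 5 CPM, which removes Cox6a2, called 0 lower. Genes higher at an unadjusted p under 0.05 numbered 2 with library sizes only and 0 with no filter. After the correction for length and GC content the median was -0.0216, with no test.

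Same-numbered tumors correlated at 0.107, 0.0235 and -0.0445 in their deviations from the group means, and unlike-numbered ones at -0.299 to 0.288. With 3 tumors per group these deviations depend on each other, so they cannot show whether the numbers pair the tumors. With the replicate number as a block, 0 genes of the chain were called and Cox6a2 was at -1.87 (edgeR adjusted p = 0.0640). Over all settings with a test, the adjusted p of Cox6a2 was 8.352e-10 (DESeq2) to 0.137. When each tumor was left out in turn, 0 to 12 genes in all and 0 of the chain were called lower or higher, 9 to 41 of the chain were lower and 0 to 2 higher at an unadjusted p under 0.05, and Cox6a2 ranged from -2.05 to -1.71. Fewer tumors enter these fits.

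Of 36 other named genes, 14 changed the sign of their log2 fold change under some setting, and none was called there. With library sizes only, Atp5g3, Atp5pb, Ndufb4c and Sdhb were at 0.0156, 0.0346, 0.0146 and 0.0524. With quantile normalization, Atp5a1, Atp5b, Atp5g3, Atp5pb and Sdhb were at 0.0760, 0.0527, 0.0362, 0.0519 and 0.0304. With the filter at 5 CPM Sdhb was at 0.0187. With limma and a pseudocount of 0.5, Atp5g3, Atp5pb, Ndufaf4, Ndufb4c and Sdhb were at 0.0145, 0.0347, 0.0153, 0.00601 and 0.0534, and with a pseudocount of 2 at 0.0144, 0.0344, 0.0136, 0.00612 and 0.0525. With the length and GC correction, Atp5g3, Cox6b1, Cox7a1, Cox8a, Ndufb4c and Sdhb were at 0.110, 0.0130, 0.125, 0.0459, 0.196 and 0.134. When each tumor was left out, the range was -0.138 to 0.00467 for Atp5g3, -0.0788 to 0.142 for Atp5mpl, -0.113 to 0.0433 for Atp5pb, -0.44 to 0.0956 for Cox7a1, -0.197 to 0.0184 for Ndufaf4, -0.0199 to 0.156 for Ndufaf7, -0.124 to 0.0764 for Ndufb4c, -0.121 to 0.0854 for Sdhb, -0.161 to 0.00928 for Sdhc and -0.0233 to 0.0968 for Uqcrfs1. Only 3 tumors per group limit the precision: a log2 fold change of 0.14 is near the median SE of 0.112.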
